A study of Stylophora pistillata with 6 samples.

Results

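Proline dehydrogenase opens the breakdown of proline. The enzyme sits at the inner mitochondrial membrane, oxidises proline with a bound flavin (FAD) and passes the electrons to coenzyme Q, so that proline can serve as a fuel and as a source of glutamate. Reverse transcriptases copy RNA into DNA and are encoded by retroelements, which often lie in a genome in many similar copies.

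In the reef coral *Stylophora pistillata*, the gene model Spis9757 had its best hit in human proline dehydrogenase and is called PROD here. The gene models numbered just before it are Spis9756, whose best hit was a predicted protein of the sea anemone *Nematostella vectensis* with no stated function, and Spis9755, whose best hit was a fragment of a putative reverse transcriptase of a midge. These 3 gene models, of 25769 in the count table, were chosen because all of them were in the study's list of gene models that differed between day and night and because their numbers follow one another. The contrast between day and night thus chose them, and its values below are a description without a test. Genome positions and sequences of the 3 were not used here, so consecutive numbers stand for the naming order alone, and the names could not be checked against a sequence.

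Branch tips of microcolonies cut from 3 syngenic parent colonies, all under the same husbandry at 25 °C, a salinity of 38 and 12 h of light (175 µmol photons per square metre and second) in turn with 12 h of darkness, gave 3 day and 3 night libraries. Day samples were frozen with 1 h of light left and night samples with 1 h of darkness left, after 10 days of recovery from cutting. Beyond day or night, the sample titles name no difference in genotype, strain or treatment. Which parent colony gave which replicate is not stated, and the tissue of the host was ground whole with its algae. The libraries held from 1552480 to 6619275 reads on coral gene models, the deepest being day replicate 3. Of 3 gene products typical of coral tissue, galaxin of the skeletal matrix, carbonic anhydrase (CAH2) and an Rh ammonium transporter (RHBGB), 3 of 3 were detected in both groups and 3 of 3 were higher by day, with a summed level of 669.7 to 739.9 CPM (reads relative to library size, after TMM scaling) in day libraries and 243 to 315 CPM in night libraries. CAH2 made up most of the sum, with means of 588 CPM by day and 204 CPM by night. RHBGB was sparse by night, with 7, 1 and 6 reads in night replicates 1 to 3. Galaxin was not called at an adjusted p of 0.05 in 8 of 16 alternative settings, and RHBGB in 4, the replicate block in DESeq2 being among both. These 3 were also among the gene models the study had called on these libraries, so their calls and directions were largely fixed in advance. Over all gene models tested, 0.256% were called higher by day. The part of these 3 in the results was not tested.

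Spis9756 was nearly silent at the end of the light phase and abundant at the end of the dark phase. Its reads numbered 3, 0 and 7 in day replicates 1 to 3 and 925, 597 and 732 in night replicates 1 to 3. Every night library lay far above every day library, and the lowest night level was 267 times the highest day level. In CPM, the day libraries had 1.07, 0 and 1.03 and the night libraries 299, 312 and 287, with means of 299 ± 12.6 CPM (SD, n = 3) in night and 0.701 ± 0.608 CPM (SD, n = 3) in day libraries. The night libraries differed from each other by little, with a coefficient of variation of 4.20%. The fitted log2 fold change, day minus night, was -8.34 (standard error 0.32, from edgeR). That standard error was derived from the F value and can be too small with so few day reads. DESeq2 gave standard errors of 0.50 without and 0.85 with the replicate block. The log2 fold change from edgeR was the lowest value among 24180 gene models. Because only 10 reads stood behind the day group, the fold itself was imprecise, and with all libraries thinned to the size of the smallest the value was -7.57. Pooled over libraries, the night level was 333 times the day level, with an exact 95% interval of 181 to 694 that covers counting error only. The 0 reads in day replicate 2 allow up to 3 reads, or 1.92 CPM. In tissue RNA, fewer cells with a transcript and less of it in each cell cannot be told apart.

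Spis9755 had the same direction at a far lower depth. Its reads numbered 3, 1 and 1 in day replicates 1 to 3 and 27, 10 and 20 in night replicates 1 to 3. All night libraries again lay above all day libraries, with levels of 1.07, 0.641 and 0.147 CPM by day and 8.74, 5.22 and 7.83 CPM by night. The means were 7.26 ± 1.83 CPM (SD, n = 3) in night and 0.620 ± 0.463 CPM (SD, n = 3) in day libraries. With 5 reads in the day group, the pooled night level was 16.8 times the day level, and its exact 95% counting interval ran from 6.80 to 53.8. The fitted log2 fold change was -3.81 (standard error 0.64), and DESeq2 gave -3.85 (standard error 0.88). The edgeR value moved to -2.94 without day replicate 3 and to -4.68 without day replicate 1. Reads from similar copies of a retroelement could have been counted on this gene model, since how reads with several matches were treated is not given in the sources used here, and its values are uncertain for that reason.

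PROD itself was well expressed in both phases and differed much less. Its reads numbered 272, 161 and 795 in day replicates 1 to 3 and 644, 338 and 479 in night replicates 1 to 3. The large read number in day replicate 3 came with the deepest library, and after scaling the day libraries stood at 97.3, 103 and 117 CPM. The night libraries stood at 208, 177 and 188 CPM, so the groups did not overlap, and the lowest night level was 1.51 times the highest day level. The means were 191 ± 16.2 CPM (SD, n = 3) in night and 106 ± 10.1 CPM (SD, n = 3) in day libraries, 1.80-fold lower by day (log2 fold change -0.85, standard error 0.18, from edgeR). The pooled night level was 1.76 times the day level, with an exact 95% counting interval of 1.63 to 1.90.

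**Figure D1:**
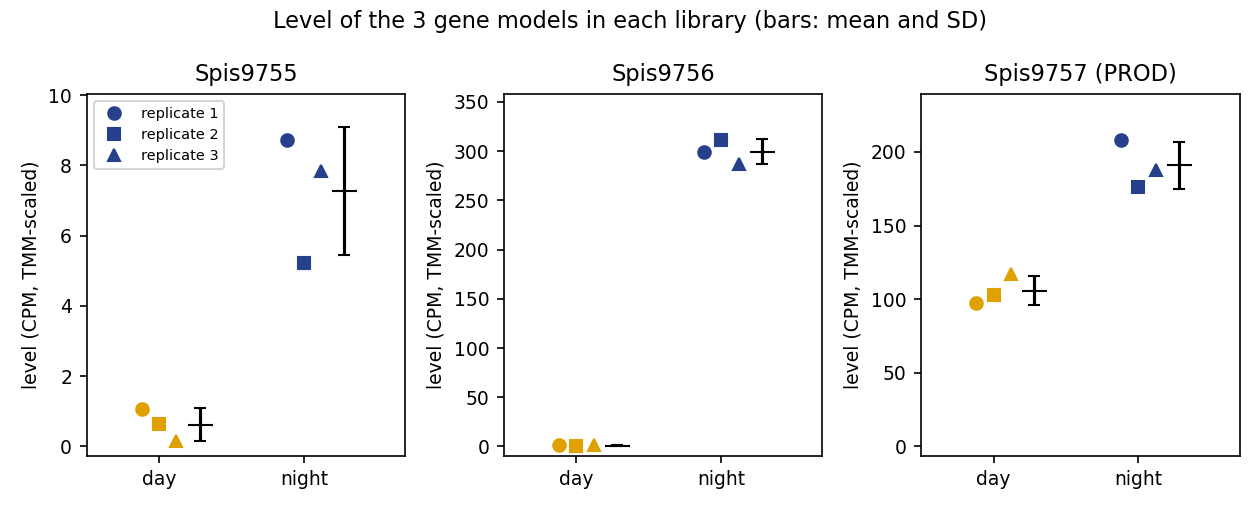
Level of Spis9755, Spis9756 and PROD (Spis9757) in each library, in CPM on a linear axis that differs between panels. Points are libraries (yellow day, blue night, with 1 symbol for each replicate number), and black bars give the mean and SD of 3 libraries. Spis9756 stood between 287 and 312 CPM in night libraries and at 1.07 CPM or less in day libraries, whereas PROD was present in both groups.

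Of the 3 gene models, 3 were called at an adjusted p of 0.05 by edgeR's quasi-likelihood test, against 0.666% of all 24180 gene models tested (0.409% lower and 0.256% higher by day), which is 161 gene models, or 409 with the replicate block in edgeR. Likewise 3 of 3 had every night library above every day library, against 5.04% of all. PROD was not called with limma-voom, nor when day replicate 1, day replicate 2, night replicate 1 or night replicate 2 was left out, and Spis9755 and Spis9756 were called in 16 of 16 alternatives. As this contrast chose the members, nothing is read from these counts. In the order of log2 fold changes from the lowest, Spis9756 was at place 1, Spis9755 at place 30 and PROD at place 1642.

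The size of the difference did not run in 1 direction along the numbers. It was largest in the middle gene model, smaller in Spis9755 and smallest in PROD, with fitted folds of 324, 14.0 and 1.80 higher by night. The order was also examined within each replicate number, as a description. For Spis9756 the night level was 279 times the day level in replicate 1 (exact 95% counting interval 95.1 to 1355) and 278 times in replicate 3 (134 to 695). In replicate 2 the day library held no read. With 3 reads taken as its floor the ratio there was at least 162, while the exact 95% counting interval began lower, at 131. For Spis9755 the ratios were 8.14 (2.51 to 41.9), 8.15 (1.16 to 354) and 53.2 (8.51 to 2206) in replicates 1 to 3. For PROD they were 2.14 (1.86 to 2.48), 1.71 (1.41 to 2.08) and 1.60 (1.43 to 1.80). Spis9756 had the largest ratio and PROD the smallest in each replicate number. In replicate 2 the intervals of Spis9755 and PROD overlapped, and those of Spis9755 and Spis9756 overlapped in replicates 2 and 3, where Spis9755 had 1 day read each.

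The reads of the 3 gene models summed to 99.5, 104 and 118 CPM in day replicates 1 to 3 and to 517, 493 and 482 CPM in night replicates 1 to 3, and they divided differently. This division does not depend on how libraries are scaled. PROD held 97.8%, 99.4% and 99.0% of these reads in day replicates 1 to 3 and 40.4%, 35.8% and 38.9% in night replicates 1 to 3. Spis9756 held 1.08% of 278 reads (exact 95% interval 0.223 to 3.12%), 0 of 162 reads (3 reads would be 1.85%) and 0.872% of 803 reads (0.351 to 1.79%) by day. By night it held 58.0% of 1596 reads (55.5 to 60.4%), 63.2% of 945 reads (60.0 to 66.3%) and 59.5% of 1231 reads (56.7 to 62.2%). It thus outnumbered PROD in reads in each night library and in no day library. Spis9755 stayed a small part in both groups, with 0.125 to 1.08% by day and 1.06 to 1.69% by night. Coding lengths are not given in the sources used here, so these shares are shares of reads and not of molecules.

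**Figure D2:**
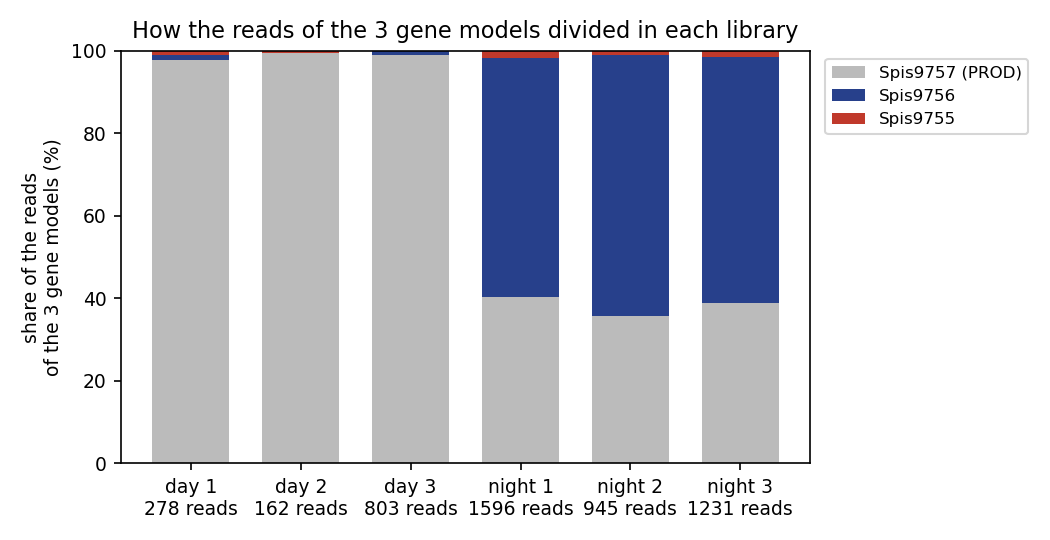
Division of the reads of the 3 gene models in each of the 6 libraries, in percent of their summed reads, which stand under each bar. PROD (grey) held nearly all reads in day libraries, and Spis9756 (blue) held 58.0 to 63.2% in night libraries.

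Among the night libraries, where both were well covered, there were 1.44 reads of Spis9756 for each read of PROD in replicate 1 (exact 95% interval 1.30 to 1.59), 1.77 in replicate 2 (1.54 to 2.02) and 1.53 in replicate 3 (1.36 to 1.72). Ordered by size, neighbouring values had overlapping intervals. Night replicate 1 was the highest of the 3 for PROD and for Spis9755, and night replicate 2 the highest for Spis9756. The coefficient of variation over the night libraries was 8.49% for PROD and 25.1% for Spis9755, the latter at 10 to 27 reads per library.

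Whether the gene models around the 3 also differed was examined next. The 3 were chosen by the contrast between day and night, as a run of listed numbers. Such a run ends where the list has a gap, so the same contrast on the same libraries also set its edges. A lack of a call in Spis9754 and Spis9758 was thus largely fixed in advance. It is no independent test of where the difference ends. The other gene models around the 3 were not chosen by the contrast. The 10 numbers before and the 10 after, Spis9745 to Spis9767 with the members set aside, held 20 gene models, and 20 of them had a read. Spis9754 and Spis9758 are among these 20, so the counts below include their outcomes, which were largely fixed in advance. No call was made among them, as edgeR called 0 of 20 at an adjusted p of 0.05 (lowest adjusted p = 0.997), and 0 of 20 had an unadjusted p under 0.05, against 5.35% of all gene models tested. DESeq2 also called 0, with 0 at an unadjusted p under 0.05 among 20 (18 of which received an adjusted p), and limma-voom called 0 of the 18 it tested, 1 of them with an unadjusted p under 0.05. Under edgeR, 1 of 20 had an unadjusted p under 0.05 in thinned libraries, and 1 of 20 without day replicate 2. The groups overlapped in 20 of the 20. Over all gene models tested, 5.04% had every night library above every day library, so a lack of separation among 20 says little. Log2 fold changes ran from -2.03 to 0.27 with a median of -0.15, beside a median of 0.00 over all gene models tested, and 12 of 20 were below 0. Among the 15 that averaged 20 reads per library or more the range was -0.52 to 0.27. A p above the threshold does not show that these gene models stayed level.

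The gene models at the 2 edges were among the sparse ones. Spis9754, just before Spis9755, had 1, 1 and 0 reads by day and 1, 2 and 4 by night, with a log2 fold change of -2.03 and a standard error of 1.23. A difference of the size seen in PROD was not detectable there. Spis9758, just after PROD, had 7, 2 and 17 reads by day and 5, 6 and 4 by night, and its log2 fold change was 0.13 (standard error 0.62). Spis9753, the nearest below that averaged 20 reads per library or more, had 24, 19 and 54 reads by day and 44, 21 and 37 by night (log2 fold change -0.52, standard error 0.31). In the alternatives its log2 fold change ran from -0.69 (standard error 0.34), without day replicate 2, to -0.34 (standard error 0.38), in thinned libraries.

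**Figure D3:**
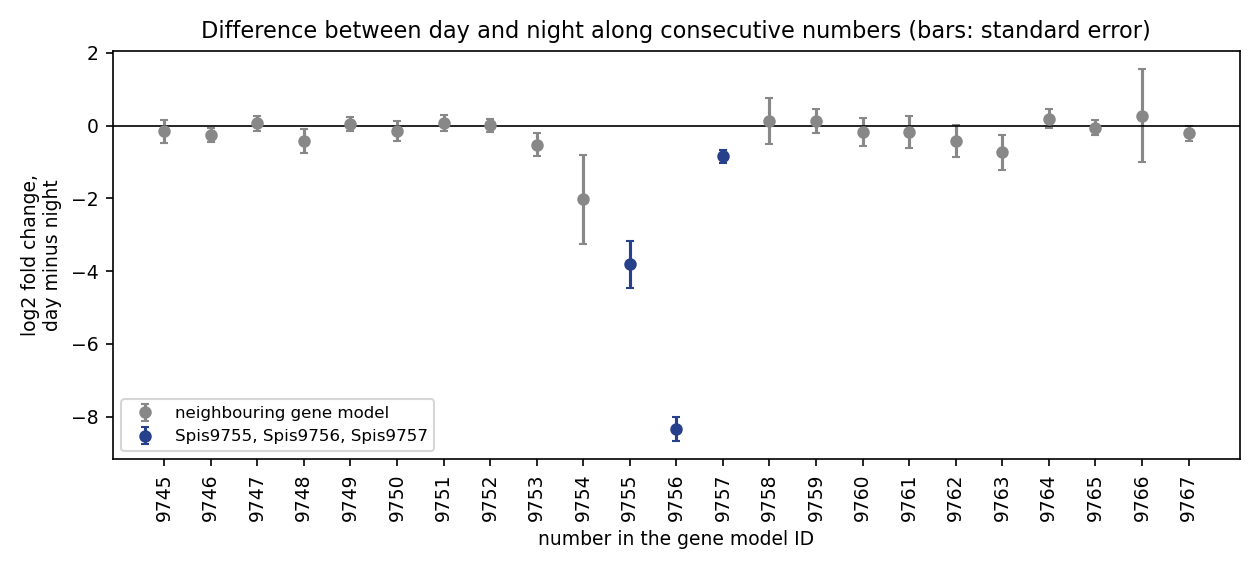
Log2 fold change, day minus night, of Spis9745 to Spis9767 against the number in the ID. Points are fitted values of 3 day against 3 night libraries and bars the standard error. The bars can be too short where few reads stood behind a group, as by day in Spis9755 and Spis9756. The 3 chosen gene models (blue) stood at -3.81, -8.34 and -0.85, and the 20 neighbours (grey) between -2.03 and 0.27, the lowest being Spis9754 with 9 reads in all.

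Some of the called gene models stood in runs of consecutive numbers, and how many runs scattered calls would give was not computed. Of the 99 numbers called lower by day, 4 pairs were consecutive, and Spis9755 to Spis9757 formed the 1 run of 3. Of the 62 called higher by day, 3 pairs were consecutive and 0 runs reached 3. These counts include the contrast that chose the members and are given as a description.

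The gene models whose level followed each member most closely over the 6 libraries were found by Pearson's correlation of log2 CPM among the 14919 gene models that averaged 20 reads per library or more. Since the 6 values fall into a day and a night cluster, a high r states little more than that a gene model was also higher by night. For Spis9756 these were APOD (Spis7607), a lipocalin that carries lipids (r = 0.998), FMO5 (Spis7901), a flavin-containing monooxygenase (r = 0.998), and PTHD3 (Spis18759), a Patched domain protein (r = 0.995). All of them had reads by day, PTHD3 for instance 48.4 ± 8.29 CPM (SD, n = 3), whereas Spis9756 was nearly absent then. For PROD they were CB042 (Spis2785, r = 0.992), the unnamed Spis1963 (r = 0.991) and ABCB6 (Spis7710), an ABC transporter named for its place in mitochondria (r = 0.987). For Spis9755 they included the unnamed Spis17583 (r = 0.998) and the unnamed Spis17214 (r = 0.991). Spis17583 stood at 50.9 ± 1.14 CPM (SD, n = 3) in night and 43.5 ± 1.65 CPM (SD, n = 3) in day libraries, so a high r came with a small difference. Correlations above 0.95 were reached by 75 gene models for Spis9756, 62 for PROD and 39 for Spis9755.

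PROD was then set beside other gene models linked to its compartment. For this, 8 gene models were taken whose products act in mitochondria, in coenzyme Q supply or on mRNAs of mitochondrial proteins. Of these, 8 fell by day and 0 rose in edgeR's test, with a median log2 fold change of -1.34. Over all gene models tested, 0.409% were called lower and 0.256% higher by day, and the median log2 fold change was 0.005. The 8 were taken from the gene models the study had called on these libraries, so their calls were largely fixed in advance. No enrichment of mitochondrial gene models can be read from the count. ADCK1 (Spis2395), a mitochondrial kinase-like protein, had 26.4 ± 6.02 CPM (SD, n = 3) in night and 7.21 ± 2.48 CPM (SD, n = 3) in day libraries. COQ8A (Spis13613), needed for making coenzyme Q, which takes up the electrons from proline dehydrogenase, had 53.6 ± 8.29 CPM (SD, n = 3) in night and 14.8 ± 6.16 CPM (SD, n = 3) in day libraries. DLP1 (Spis551), a subunit of the synthase of the coenzyme Q side chain, stood at -1.61 ± 0.33 (log2 fold change and standard error). TSPO, the translocator protein of the outer mitochondrial membrane, stood at -1.45 ± 0.26 (log2 fold change and standard error). ACADM (Spis17128), which oxidises medium-chain fatty acids and likewise feeds electrons towards coenzyme Q, stood at 266 ± 55.8 CPM (SD, n = 3) in night and 116 ± 38.7 CPM (SD, n = 3) in day libraries. The values nearest to PROD were those of CLUH (Spis17290), which binds mRNAs of mitochondrial proteins, at -0.90 (standard error 0.20) and of MFRN2 (Spis19230), an iron importer of mitochondria, at -0.83 (standard error 0.19). The difference of PROD was smaller than that of 7 of the 8, though CLUH and MFRN2 lay within 1 standard error of it.

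Enzymes that, like PROD, carry a flavin, with the riboflavin transporter that supplies its precursor, made the other list. Of the 6 gene models described, 5 fell by day and 1 rose in edgeR's test, with a median log2 fold change of -1.11, beside the same 0.409%, 0.256% and median of 0.005 over all. SOX (Spis2213), the peroxisomal sarcosine oxidase, which in mammals acts on N-methylated amino acids, had 18.9 ± 3.68 CPM (SD, n = 3) in night and 5.23 ± 1.62 CPM (SD, n = 3) in day libraries. S52A3 (Spis6332), the riboflavin transporter, had 31.7 ± 9.60 CPM (SD, n = 3) in night and 14.4 ± 1.47 CPM (SD, n = 3) in day libraries. The exception was Y9130 (Spis10799), a putative amine oxidase, at 177 ± 20.0 CPM (SD, n = 3) in night and 340.2 ± 45.4 CPM (SD, n = 3) in day libraries. The members of both lists came from the gene models the study had called on these libraries, so the counts are no independent evidence of a direction, and ACADM is in both. ABCB6 and COQ8A passed in 16 of 16 alternatives, and the other gene models of both lists did not. With limma-voom 4 of the 8 and 2 of the 6 passed, as MFRN2, CLUH, ACADM, TSPO, FMO5, Y9130 and S52A3 did not. With the values as deposited, which for some IDs also hold the reads of longer IDs, 4 and 3 passed, and those that did not were ADCK1, DLP1 and SOX, with log2 fold changes of -0.54, -0.28 and -0.18, and ACADM, CLUH and S52A3. With the replicate block in DESeq2 7 and 4 passed, and DLP1, FMO5 and S52A3 did not. CLUH and S52A3 were lost under both stricter filters on low counts, and FMO5 with DESeq2. When day replicate 1 was left out, MFRN2, DLP1, FMO5, Y9130 and S52A3 did not pass. Leaving out day replicate 2 removed CLUH, ACADM, FMO5 and S52A3, and leaving out day replicate 3 removed 0. For night replicate 1 these were CLUH, DLP1, FMO5, Y9130, S52A3 and NCPR (Spis12056), a reductase that serves cytochrome P450. For night replicate 2 they were MFRN2, CLUH, DLP1, FMO5 and Y9130, and for night replicate 3 MFRN2, FMO5 and S52A3. The mitochondrial count was thus 5 without night replicate 2, and the flavin count 3 without day replicate 1 or day replicate 2 and 2 without night replicate 1. The other enzymes of proline metabolism were not analysed here, since no source used here ties them to gene models of the table.

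**Figure D4:**
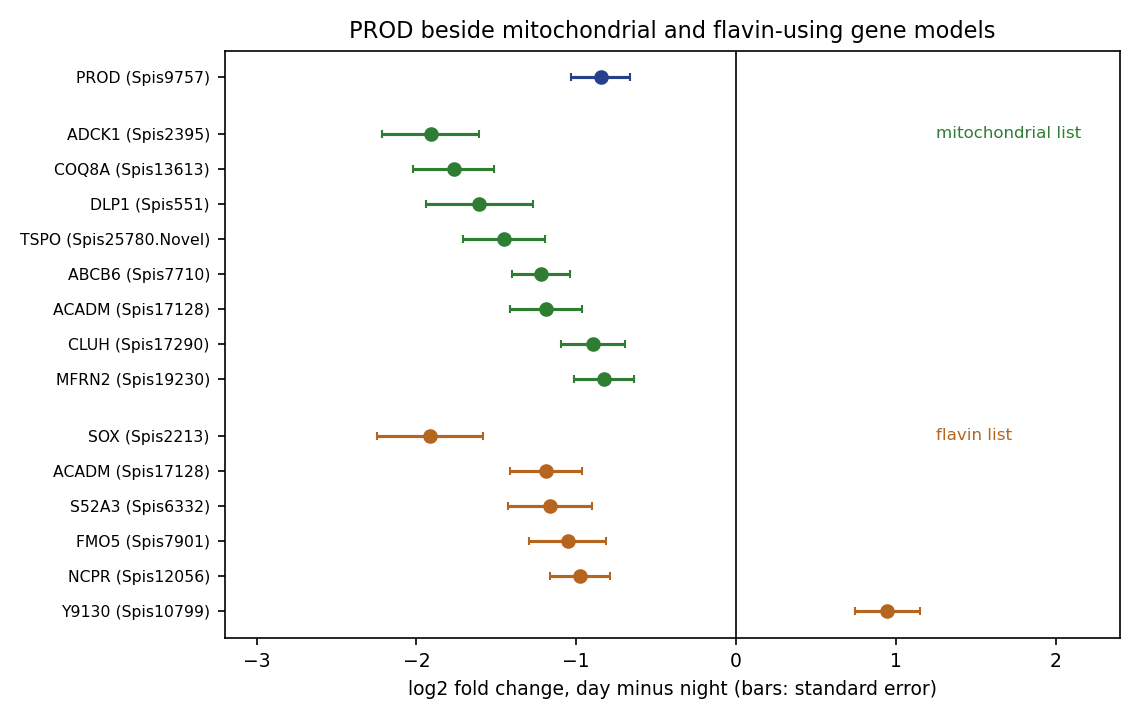
Log2 fold change, day minus night, of PROD (blue), of 8 mitochondria-related (green) and of 6 flavin-related gene models (brown). Points are fitted values of 3 day against 3 night libraries and bars the standard error. PROD stood at -0.85, within the upper part of both lists, and Y9130 at 0.94 was the 1 gene model above 0.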

How the data were processed

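Coral poly(A) RNA of 3 day and 3 night samples was sequenced by the authors on a SOLiD 3 instrument. Their colorspace reads were mapped, unpaired, on the longest coding sequence per gene model (Bowtie, listed as 1.2.3 by the submitters), and they deposited raw whole-number counts for each gene model, neither normalized nor pooled.

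In the deposited counts, the value of an ID that starts longer IDs (2371 gene models, 9.20%) also holds their reads. These were subtracted, which left 0 values below 0 and gave library totals equal to the mapped reads listed by the study in 6 of 6 libraries. It changed 0 of the 3 members.

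Day was compared with night in R 4.3.3 with edgeR 4.0.16 (TMM, robust quasi-likelihood F test, two-sided, without a block), with Benjamini-Hochberg adjustment over 24180 gene models. The 1589 without a read were removed. The standard error is the size of a log2 fold change divided by the square root of F. It can be too small where a group has few reads, as by day in Spis9755 and Spis9756. Exact (Clopper-Pearson) 95% intervals are given for ratios and shares of reads and cover counting error only. Tables and figures used Python 3.11.15, scipy 1.17.1 and matplotlib 3.10.9. The fit and the subtraction were tested on simulated data.

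The series' design text calls the replicates biological, but which colony gave which is not stated, so the p-values reflect the spread among these libraries. Same-numbered day and night libraries deviated together over 14262 gene models with at least 10 reads in every library (correlations 0.24, 0.19 and 0.37, other pairs -0.28 to 0.09), and the number served as the pairing in the fits with a replicate block. The values reported come from the fit without it.

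The members, the lists and the tests were chosen with earlier results of these data known. Named are the 3 members, the gene models at the 2 edges, neighbours that passed, the 3 most alike for each member, and list members. Some gene models of the flavin list and of the most alike are not reported here, whatever their values. Spis9753 was chosen after its values were seen. The alternatives were library totals alone, RLE size factors, filterByExpr, at least 10 reads in all, DESeq2 1.42.0, limma-voom (limma 3.58.1), the replicate block in edgeR and DESeq2, thinned libraries, the values as deposited, and leaving out each library.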

Additional observations from a re-analysis of the deposited data

How the results depend on the processing

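The log2 fold changes of the 3 gene models stayed below 0 in 16 of 16 alternatives, from -8.66 to -7.57 for Spis9756, -4.68 to -2.94 for Spis9755 and -0.92 to -0.78 for PROD. Spis9755 and Spis9756 kept their call in 16 of 16. PROD kept it in 11 and lost it in 5, with limma-voom (-0.85), without day replicate 1 (-0.79), day replicate 2 (-0.83), night replicate 1 (-0.78) and night replicate 2 (-0.90), so that 2 of the 3 members were called there. The cause was not tested. Without a single library, the number called among all gene models ran from 94 to 233, the lowest without night replicate 2, followed by 97 without night replicate 1, and the highest without day replicate 3. It was 79 with limma-voom and 409 with the replicate block in edgeR, which is the pairing by number, against 161. In edgeR the block changed no call of a member or neighbour and neither list count. In DESeq2 it left the 3 members called, and the lists counted 7 (mitochondrial) and 4 (flavin), as DLP1, FMO5 and S52A3 were lost. Mean levels in CPM moved by less than 1 SD under the 2 other scalings in 12 of 12 cases. The neighbours called numbered 0 in 16 of 16 alternatives. The log2 fold change of Spis9758, not called, crossed 0 and was -0.28 in thinned libraries and -0.041 to 0.47 when 1 library was left out. The lists counted 4 (mitochondrial) and 2 (flavin) with limma-voom, and 4 and 3 with the values as deposited. Without a single library the mitochondrial count ran from 5 to 8 and the flavin count from 2 to 6. Depth limits Spis9754, with 9 reads in all, and the day levels of Spis9755 and Spis9756, which rest on 5 and 10 reads.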

Other observations

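Among the neighbours, Spis9766 separated the libraries by replicate number instead of by phase. Its reads numbered 78 in day replicate 3 and 28 in night replicate 3, against 3 and 6 in day replicates 1 and 2 and 1 and 8 in night replicates 1 and 2. In CPM these were 11.5 and 11.0 in replicate 3 and 0.324 to 4.18 in the others. It was chosen after its values were seen, and this pattern was not tested.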
